A study of Mus musculus with 2 samples.

Results

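The chromatin of 10 planar cell polarity genes, Vangl1, Vangl2, Celsr1, Celsr2, Celsr3, Dvl1, Dvl2, Dvl3, Ptk7 and Prickle2, was described in the mouse organ of Corti by ATAC-seq, which maps open DNA by the insertion of adapters with the Tn5 transposase. The 10 genes were chosen by name, from 21938 protein-coding genes of chromosomes 1 to 19, X and Y in GENCODE vM21. The choice was made with earlier results of these data known. A peak belonged to a gene if its centre lay within 3 kb of any annotated TSS of the gene (a promoter peak), in the gene body, or within 10 kb upstream. By this rule the genes held 58 of 77596 peaks in the list labelled WT and 65 of 100431 peaks in the list labelled Bmi1-/-. The mice were P2 littermates, Bmi1-/- or WT, from a line carrying the tm1Brn allele that had been backcrossed into C57BL/6J. The allele is constitutive, so the loss of Bmi1 was not limited to the organ of Corti. Each genotype was represented by 1 library, prepared from 20000 cells of the pooled organs of Corti of 10 mice (20 cochleae). With 1 library per genotype no difference could be tested against the spread between animals, so values are given side by side. The 95% intervals of enrichments and ratios cover the counting error of reads only. PCR reads are not independent molecules, so the true error is wider. The 95% intervals of shares treat genes or peaks as independent draws, although the members were not drawn at random. No interval covers the spread between animals.

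Planar cell polarity aligns cells within the plane of an epithelium. Its core proteins gather on opposite sides of each cell, with Vangl and Prickle on one side and Frizzled and Dishevelled on the other, and the Celsr cadherins link neighbouring cells on both sides. In the organ of Corti the pathway is known for setting the common orientation of the hair bundles and for the narrowing and lengthening of the cochlear duct. Bmi1 is a subunit of the Polycomb repressive complex PRC1, which keeps developmental genes silent through chromatin.

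The names of the peaks inside the lists were crossed with the labels: those of the WT list began with the abbreviation of the knockout, and those of the Bmi1-/- list with that of WT. Directions given here follow the GEO labels, and each direction and ratio would turn around if the lists were exchanged. The pileup of reads at each summit and the local background were solved from the deposited values, and their quotient is called the enrichment. The commonest background was 6.32 reads in the WT list and 8.04 reads in the Bmi1-/- list. The strength of a peak is given as its percentile within its own list, by −log10 p. Promoter peaks were found at 7 of 8 hair cell markers and 7 of 8 supporting cell markers in each list. Otof was without one in the WT list, Lhx3 in the Bmi1-/- list and Lfng in both. Promoter peaks were also found at markers of other cell types. Of all protein-coding genes 59.1% had one in the WT list and 68.2% in the Bmi1-/- list. Counts near or below these shares do not show that a cell type was present. The counts in the WT and Bmi1-/- lists were 5 and 5 of 8 for neurons, 3 and 4 of 8 for glia, 3 and 4 of 8 for mesenchyme, and 6 and 5 of 8 for endothelium. For blood and macrophages the counts were 4 and 1 of 8, with a summed promoter enrichment of 10.4 and 2.48, and Ptprc, Hbb-bs and Alas2 had no promoter peak in either list. The part of other cell types in the values below was not tested. The Bmi1 gene itself had 1 promoter peak in the WT list and 4 in the Bmi1-/- list, which does not check the genotype, since a disrupted gene can keep an open promoter.

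All 10 genes had a promoter peak in the Bmi1-/- list, and 8 had one in the WT list. The share of all protein-coding genes was 68.2% in the Bmi1-/- list and 59.1% in the WT list. Dvl1 and Ptk7 were the 2 members called in the Bmi1-/- list only, a state held by 15.2% of all genes, and the other 8 had one in both lists, against 53% of all genes. No member had a promoter peak in the WT list only, against 6.1% of all genes, and 0 had none in either, against 25.7%. The 95% exact binomial interval of the 2 of 10 was 2.52% to 55.6% and that of the 0 of 10 was 0% to 30.8%, and both hold the share of all genes. The interval of the 8 of 10 was 44.4% to 97.5%, which also holds it. That of the 10 of 10 in the Bmi1-/- list was 69.2% to 100%, just above the 68.2% of all genes. The members had a median of 5.5 annotated start sites (range 2 to 8), and all protein-coding genes a median of 3. The part of this difference in the counts was not tested. With only peaks of a q-value of at most 0.05 the states were the same, 8 members in both lists (39.5% of all genes), 2 in the Bmi1-/- list only (20.9%), 0 in the WT list only (5.8%) and 0 without such a peak (33.8%). Here the interval of the 8, 44.4% to 97.5%, left out the 39.5%. That of the 0 without such a peak, 0% to 30.8%, left out the 33.8%. The members were not drawn at random, so these intervals do not test them against all genes. With only peaks of a −log10 q of at least 2 the counts were 3 of 10 in the WT list and 8 of 10 in the Bmi1-/- list, where 29.1% and 47.3% of all genes passed.

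A closer window, chosen after the values were seen, separated the lists further. A peak centre lay within 500 bp of the gene's 5′ end for 2 members in the WT list, Dvl2 and Prickle2. In the Bmi1-/- list this held for 7 members, which were Celsr1, Celsr3, Dvl1, Dvl2, Dvl3, Ptk7 and Prickle2. The corresponding shares of all genes were 34.7% and 46.5%. Of the members, 5 had such a peak in the Bmi1-/- list only, against 17.2% of all genes, and 0 in the WT list only, against 5.45%. The interval of the 5 of 10 was 18.7% to 81.3%. When any annotated start site was allowed, the WT list had a peak within 500 bp for 4 members, adding Vangl2 and Celsr1, and the Bmi1-/- list for all 10. The shares of all genes were then 43.6% and 55.5%, and 6 members, against 17.4% of all genes, had such a peak in the Bmi1-/- list only. The interval of the 6 of 10 was 26.2% to 87.8% and that of the 10 of 10 was 69.2% to 100%, both above the share of all genes. The members had a median of 5.5 annotated start sites and all protein-coding genes 3. The part of this difference in these counts was not tested. The window was picked for these genes, so the contrast is a description.

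**Figure D1:**
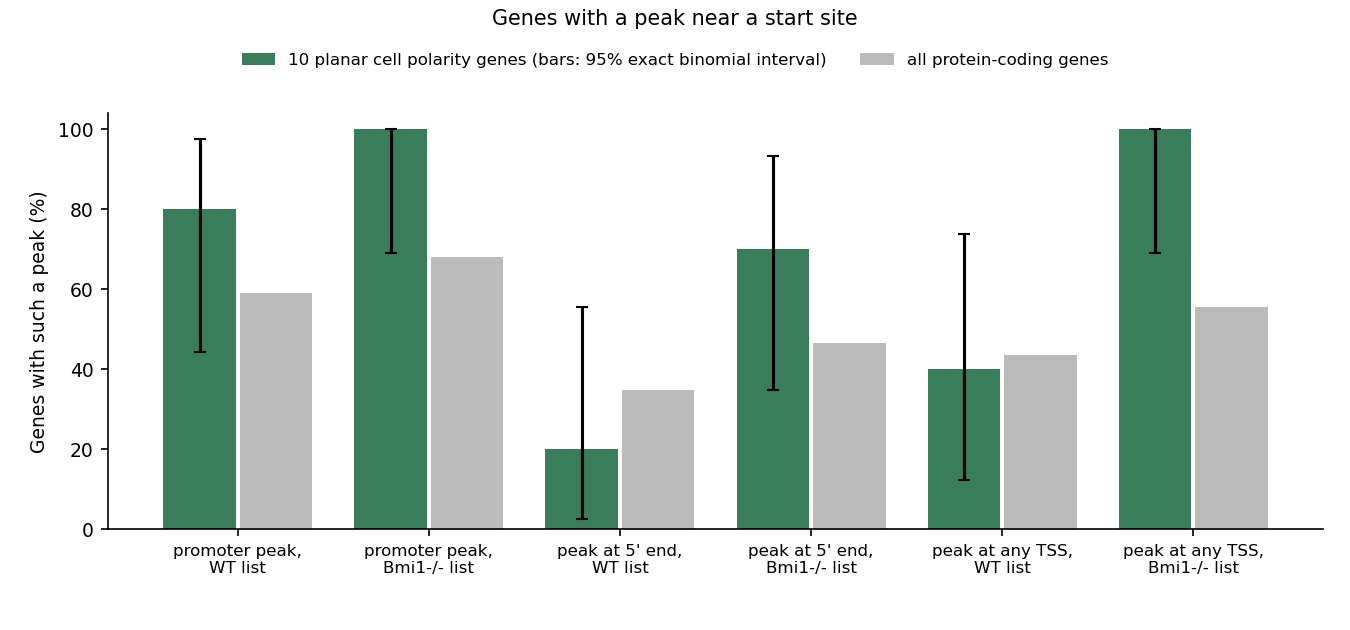
Share of genes (%) with a promoter peak (centre within 3 kb of any TSS), with a peak within 500 bp of the gene's 5′ end, and with a peak within 500 bp of any TSS, in each list. Green bars are the 10 planar cell polarity genes with 95% exact binomial intervals and grey bars are all 21938 protein-coding genes. The members stood at 80% and 100% for promoter peaks and at 20% and 70% at the 5′ end.

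The DNA just upstream of the start shows what was or was not called open, and 5 members that differ in this respect are printed. They are followed by the 200 bases around the WT summit of the intronic Celsr3 peak, a site that was called in both lists and was the strongest promoter peak of the group in the Bmi1-/- list. The sequences run 5′ to 3′ along the gene, the 5 upstream sequences as the 250 bases before the RefSeq start in GRCm38.p6. Capitals mark matches on either strand to the GC box GGGCGG, the E box CACGTG, the NRF1 core TGCGCA, the CCAAT box, the ETS motif CCGGAAGT, the CRE TGACGTCA, the YY1 core AAGATGGC and the TATA box TATAAA. The E box and the YY1 core were added after the sequences had been read. A match is only a match of letters.
Dvl1 upstream, chr4:155847152-155847401, + strand: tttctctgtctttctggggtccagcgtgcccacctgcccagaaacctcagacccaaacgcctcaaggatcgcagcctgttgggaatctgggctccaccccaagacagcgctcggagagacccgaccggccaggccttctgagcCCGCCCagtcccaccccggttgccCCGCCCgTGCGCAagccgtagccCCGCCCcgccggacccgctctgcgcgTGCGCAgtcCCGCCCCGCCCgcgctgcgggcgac
Ptk7 upstream, chr17:46629505-46629754, - strand: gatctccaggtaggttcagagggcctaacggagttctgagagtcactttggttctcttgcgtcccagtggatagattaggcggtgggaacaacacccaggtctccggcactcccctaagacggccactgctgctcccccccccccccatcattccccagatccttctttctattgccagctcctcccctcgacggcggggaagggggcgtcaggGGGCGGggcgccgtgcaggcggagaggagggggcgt
Dvl2 upstream, chr11:70000342-70000591, + strand: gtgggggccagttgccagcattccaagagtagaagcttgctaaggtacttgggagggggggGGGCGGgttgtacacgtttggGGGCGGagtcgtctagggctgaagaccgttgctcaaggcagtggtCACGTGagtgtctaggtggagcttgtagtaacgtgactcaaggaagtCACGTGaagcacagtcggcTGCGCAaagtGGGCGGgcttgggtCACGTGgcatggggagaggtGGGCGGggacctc
Prickle2 upstream, chr6:92706185-92706434, - strand: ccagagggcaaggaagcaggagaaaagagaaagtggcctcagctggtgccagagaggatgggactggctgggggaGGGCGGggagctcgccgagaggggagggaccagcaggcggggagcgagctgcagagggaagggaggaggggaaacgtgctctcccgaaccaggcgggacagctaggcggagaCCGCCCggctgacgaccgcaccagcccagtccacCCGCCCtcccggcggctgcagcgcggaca
Celsr2 upstream, chr3:108415580-108415829, - strand: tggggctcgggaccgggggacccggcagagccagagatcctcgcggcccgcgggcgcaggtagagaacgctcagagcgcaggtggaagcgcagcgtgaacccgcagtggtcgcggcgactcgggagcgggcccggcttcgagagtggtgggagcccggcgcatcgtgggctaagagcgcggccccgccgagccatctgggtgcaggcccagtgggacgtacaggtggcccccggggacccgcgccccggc
Celsr3 summit, chr9:108832459-108832658, + strand: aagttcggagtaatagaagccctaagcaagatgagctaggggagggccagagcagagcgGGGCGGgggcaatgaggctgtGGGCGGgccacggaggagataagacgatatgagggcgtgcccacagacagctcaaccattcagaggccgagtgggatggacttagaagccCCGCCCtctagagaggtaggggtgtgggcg
Dvl1 and Ptk7 had a peak over their start in the Bmi1-/- list only. The Dvl1 upstream sequence held 5 GC boxes, of which 2 overlapped, and 2 NRF1 cores, and that of Ptk7 held 1 GC box. Dvl2 had a peak over its start in both lists, and its upstream sequence held 4 GC boxes, 3 E boxes and 1 NRF1 core. Prickle2 had 3 GC boxes. Its 300-base window was covered in full by the Bmi1-/- peak and by 0 bp of any WT peak, since the nearest WT peak ended inside the gene. Celsr2, without a start peak in either list, had none of the 8 motifs in the printed bases, although 76.3% of its promoter window was G or C. The Celsr3 summit held 3 GC boxes.

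RefSeq promoter windows of 300 bases, from 250 before the start to 50 after it, were found for 8 of the 10 genes. They gave 11 windows, 4 of them at Prickle2. Vangl1 and Celsr1 were not matched. A GC box lay in 9 of the 11 windows, against 35.7% of 32851 promoter windows of the same length. The CCAAT box lay in 2 windows (37.4% of all), the NRF1 core in 2 (7.76%), the CRE in 1 (1.79%), the E box in 1 (7.15%) and the YY1 core in 1 (2.75%). The ETS motif and the TATA box were in 0 windows, against 3.89% and 13.6% of all. The median G and C content was 66.0% in the member windows and 52.7% in all windows. The median ratio of observed to expected CpG was 0.709 and 0.384. The share of windows with a GC box stands beside this richer composition, whose part in it was not tested.

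**Figure D2:**
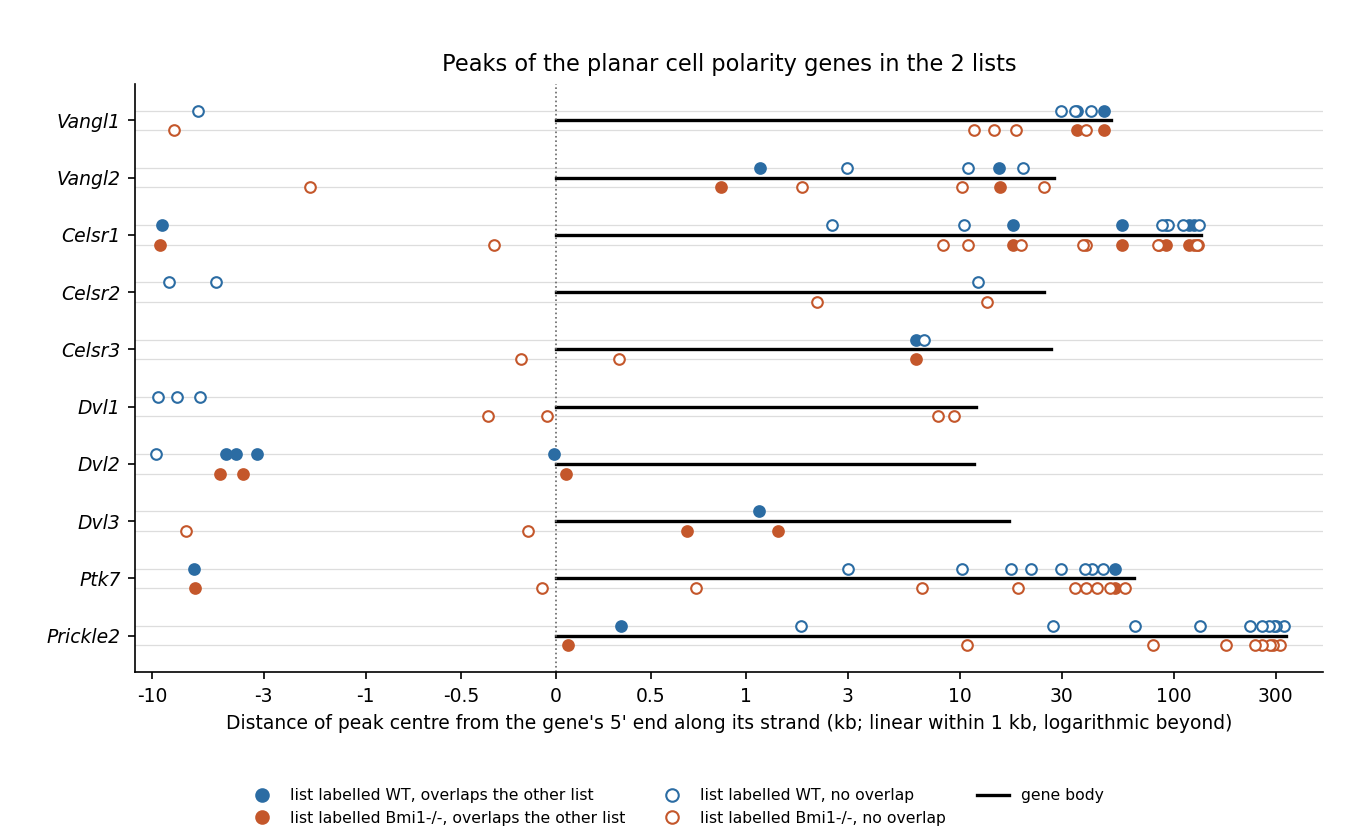
Position of every member peak, 58 in the list labelled WT (blue) and 65 in the list labelled Bmi1-/- (orange), as the distance of the peak centre from the gene's 5′ end in kb along its strand (linear within 1 kb, logarithmic beyond). Filled circles overlap a peak of the other list by at least 1 bp, open circles do not, and black lines are gene bodies. Around the 5′ end the Bmi1-/- list had peaks for 7 genes and the WT list for 2.

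The Van Gogh genes, whose multi-pass membrane proteins recruit Prickle and lie opposite Frizzled in the cell, had promoter peaks in both lists. Vangl1 (ENSMUSG00000027860.15, chr3:102153583-102204693, minus strand) had no peak within 3 kb of its 5′ end in either list, and its promoter peaks lay at internal start sites. The strongest in the WT list was at chr3:102163349-102163602, in a coding exon 2464 bp from the nearest TSS. It had 19 reads over a background of 6.94, an enrichment of 2.74 (1.65 to 4.28), at the 52.1 percentile. The strongest in the Bmi1-/- list, in an intron at chr3:102169252-102169456, had 21 reads over 8.18, an enrichment of 2.57 (1.59 to 3.92), at the 52.8 percentile. These were different sites. The intronic site was also called in the WT list, with 18 reads over 7.24 and a summit 15 bp away. The ratio of its enrichments, Bmi1-/- over WT, was 1.03 (0.524 to 2.06). In the Bmi1-/- list a further peak with 21 reads over 8.68 lay 90 bp from an internal start site. Of the remaining peaks the strongest was 6090 bp upstream in the WT list, with 20 reads over 6.44, and in an intron 11667 bp into the gene in the Bmi1-/- list, with 25 reads over 9.52. A peak in a UTR exon 47406 bp into the gene was shared, with 19 reads in the WT list and 21 in the Bmi1-/- list.

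Vangl2 (ENSMUSG00000026556.15, chr1:172000960-172028444, minus strand), the Van Gogh gene best known for misaligned hair bundles when mutated, had a peak at an internal start site in both lists. The WT peak at chr1:172027052-172027511 had 21 reads over 8.52, and its centre was 13 bp from the TSS. The Bmi1-/- peak at chr1:172027368-172027784 had 27 reads over 12.5, and its centre was 281 bp from the TSS. The summits were 1 bp apart. The enrichments were 2.46 and 2.16, with a ratio of 0.875 (0.476 to 1.63), so the lists were not distinguishable there. The strongest promoter peaks lay elsewhere and did not overlap. In the WT list it was intronic, at chr1:172025359-172025558, with 23 reads over 9.06 and an enrichment of 2.54 (1.61 to 3.81), at the 62.2 percentile. In the Bmi1-/- list it lay 1828 bp upstream, at chr1:172030145-172030398, with 27 reads over 10.4 and an enrichment of 2.60 (1.71 to 3.78), at the 75.7 percentile. Away from start sites the strongest WT peak was intronic, 10966 bp into the gene, with 28 reads over 10.1, and had no counterpart. The strongest Bmi1-/- peak, 15375 bp into the gene, had 36 reads over 14.6 and overlapped a WT peak with 22 reads over 10.7. That pair stood at the 86.7 and 13.1 percentiles, yet the ratio of enrichments was 1.19 (0.684 to 2.13).

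The Celsr genes encode the large cadherins of the pathway. Celsr1 (ENSMUSG00000016028.10, chr15:85898929-86033777, minus strand), which acts in skin and inner ear polarity, had the most peaks of the group, 12 in the WT list and 16 in the Bmi1-/- list, over a region of 145 kb. The 5′ end carried a peak in the Bmi1-/- list only. This peak, at chr15:86034000-86034200, was centred 323 bp upstream and was the strongest promoter peak there, with 31 reads over 14.2, an enrichment of 2.19 (1.49 to 3.11) and the 61.9 percentile. The WT peak nearest to the start was centred 2521 bp into the gene, in a coding exon, with 20 reads over 9.98, at the 4.33 percentile. The strongest WT promoter peak was at an internal start site, chr15:85902649-85902921, with 24 reads over 9.16, an enrichment of 2.62 (1.68 to 3.90) and the 67.5 percentile. Celsr1 shared 6 peaks between the lists, more than any other member. They lay between 8943 bp upstream and 124265 bp into the gene in the WT list. Their ratios of enrichment ran from 0.860 to 1.13. The strongest other peak of the WT list, 117609 bp into the gene, was one of the shared 6 and had 23 reads in both lists, over 8.62 in WT and 10.0 in Bmi1-/-. The strongest other peak of the Bmi1-/- list, in an intron 85567 bp into the gene, had 32 reads over 11.2 (92.1 percentile) and no counterpart.

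Celsr2 (ENSMUSG00000068740.13, chr3:108390851-108415552, minus strand), known for its part in the cilia of ependymal cells, shared no peak between the lists. The only WT promoter peak, at chr3:108403194-108403568, lay in an intron 792 bp from an internal start site and had 28 reads over 12.3, an enrichment of 2.27 (1.51 to 3.28), at the 52.9 percentile. The strongest Bmi1-/- promoter peak, at chr3:108401817-108402430, lay in an intron 465 bp from a start site and had 41 reads over 17.2, an enrichment of 2.39 (1.71 to 3.24), at the 89.8 percentile. The percentiles were far apart while the enrichments were not, with a ratio of 1.05 (0.634 to 1.76), and the background under the Bmi1-/- peak was the higher. The remaining Bmi1-/- peak, in a coding exon 2162 bp into the gene, had 28 reads over 14.2. Both remaining WT peaks were upstream, and the stronger, 5042 bp upstream, had 23 reads over 6.98 at the 90.7 percentile. Celsr2 was one of 3 genes with fewer peaks in the Bmi1-/- list, 2 against 3.

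Celsr3 (ENSMUSG00000023473.13, chr9:108826320-108852969, plus strand), known for its part in axon guidance, held the strongest promoter peak of the 10 genes in the Bmi1-/- list. It lay in an intron 6268 bp into the gene, at chr9:108832418-108832757, 848 bp from an internal start site. It had 47 reads over 14.2, an enrichment of 3.30 (2.43 to 4.39), at the 98.2 percentile. The WT list had a peak at the same place, chr9:108832392-108832673, with 29 reads over 9.72, an enrichment of 2.98 (1.998 to 4.28), at the 93.5 percentile, and the summits were 6 bp apart. The ratio was 1.11 (0.682 to 1.82). The Celsr3 start carried a pair of peaks in the Bmi1-/- list and none in the WT list. The peak centred 183 bp upstream had 25 reads over 11.9, and the peak centred 330 bp downstream, in a coding exon, had 27 reads over 12.5. The upstream peak lay 788 bp from a TSS of Gm37714, and the other lay 1301 bp from it. The second WT peak, 6793 bp into the gene, had 20 reads over 9.42 (12.6 percentile).

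**Figure D3:**
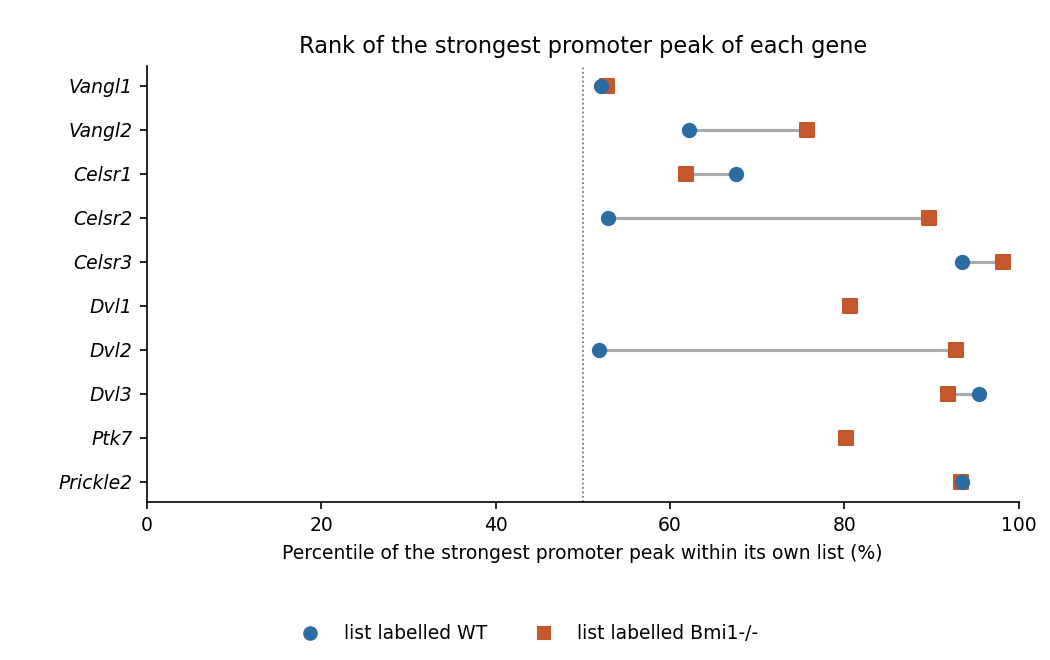
Percentile of the strongest promoter peak of each gene within its own list, by −log10 p, for the list labelled WT (blue circles) and the list labelled Bmi1-/- (orange squares). The dotted line is the median of a list. Dvl1 and Ptk7 have no WT value, and Dvl2 and Celsr2 lie farthest apart, at 51.9 and 92.9 and at 52.9 and 89.8.

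The Dishevelled genes encode the cytoplasmic adaptors that Frizzled receptors recruit, in this pathway and in Wnt signalling through beta-catenin. Dvl1 (ENSMUSG00000029071.16, chr4:155847402-155859303, plus strand) had 4 promoter peaks in the Bmi1-/- list and 0 in the WT list, and shared none. The strongest, over the start at chr4:155847255-155847454, had 33 reads over 13.8, an enrichment of 2.39 (1.65 to 3.36), at the 80.7 percentile, and covered 197 bp of the 300-base window of Dvl1. A second start peak, at chr4:155846945-155847144, also had 33 reads, over 13.9. Internal start sites held peaks with 30 and 31 reads. The 3 WT peaks all lay 5956 to 9376 bp upstream of Dvl1, with 22 to 26 reads, with a start site of Mxra8, the gene next to Dvl1, 18 to 1654 bp away. The strongest of them had 26 reads over 10.1, at the 75.1 percentile. All 3 were closer to Mxra8 than to Dvl1, and no WT peak lay in the body of Dvl1 or within 3 kb of a start site. The WT pileup and background at the Dvl1 start are not known, since the list gives values only for called peaks.

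Dvl2 (ENSMUSG00000020888.16, chr11:70000595-70012301, plus strand) was open at its start in both lists. The WT peak, at chr11:70000456-70000713, was centred 10 bp upstream and had 29 reads over 13.0, an enrichment of 2.22 (1.49 to 3.19), at the 51.9 percentile. The Bmi1-/- peak, at chr11:70000460-70000832, was centred 51 bp downstream and had 45 reads over 18.3, an enrichment of 2.46 (1.79 to 3.29), at the 92.9 percentile. The Bmi1-/- percentile was 41.0 points higher, the largest gap among the 8 genes with a promoter peak in both lists, while the ratio of enrichments was 1.10 (0.678 to 1.83). Dvl2 had fewer peaks in the Bmi1-/- list, 3 against 5, and all 3 overlapped a WT peak. Its strongest other peaks lay upstream, with 36 reads over 11.5 in the WT list (97.9 percentile) and 50 reads over 18.4 in the Bmi1-/- list (96.7 percentile). Those peaks were centred 252 bp and 15 bp from a TSS of Phf23, and a WT peak 9586 bp upstream lay 134 bp from a TSS of Gabarap. At the Phf23 end the 3 WT peaks overlapped 2 Bmi1-/- peaks, with ratios from 0.697 (0.433 to 1.13) to 1.41 (0.842 to 2.41). These were the lowest and the highest of the 19 ratios computed, each against the strongest overlapping Bmi1-/- peak. The summits of these pairs were 688 bp and 310 bp apart.

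Dvl3 (ENSMUSG00000003233.12, chr16:20516982-20534010, plus strand) had 1 peak in the WT list and 4 in the Bmi1-/- list. The WT peak, in an intron at chr16:20517799-20518458, had 27 reads over 8.20, an enrichment of 3.29 (2.17 to 4.79), at the 95.5 percentile, the highest WT promoter percentile of the 10 genes. It overlapped 2 Bmi1-/- peaks on either side. The stronger, at chr16:20517424-20517924, had 31 reads over 10.7, an enrichment of 2.90 (1.97 to 4.11), at the 91.9 percentile, but its summit was 732 bp from the WT summit. The other, at chr16:20518269-20518527, had 24 reads over 10.8, an enrichment of 2.21. Its summit was nearer to the WT summit, at 20518372 against 20518273. The ratio of the strongest peaks was 0.880 (0.508 to 1.53), and none was computed for the pair with the nearer summits. A peak over the start, centred 148 bp upstream, was in the Bmi1-/- list only, with 29 reads over 10.5 at the 86.7 percentile. The WT peak lay 363 bp from a TSS of Gm16618, and the stronger Bmi1-/- peak 92 bp from it.

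Ptk7 (ENSMUSG00000023972.10, chr17:46564471-46629504, minus strand) encodes a receptor tyrosine kinase without catalytic activity that is needed for hair bundle orientation. It had 3 promoter peaks in the Bmi1-/- list and 0 in the WT list. The strongest, in an intron at chr17:46570138-46570384, was centred 2689 bp from an internal start site. It had 28 reads over 10.9, an enrichment of 2.58 (1.71 to 3.73), at the 80.2 percentile. The peak over the 5′ end, at chr17:46629386-46629770, was centred 74 bp upstream, had 28 reads over 12.4 at the 54.0 percentile and covered all 300 bases of the Ptk7 window. The last of the 3, 736 bp into the gene, had 24 reads over 12.4. The nearest WT peak lay 3001 bp into the gene, just past the promoter window, with 22 reads over 9.52. With a window of 3 kb the call for Ptk7 therefore turned on 1 bp, and that peak did not overlap any Bmi1-/- peak. Over the whole region there were 10 WT peaks and 11 Bmi1-/- peaks. The strongest other peak was the same in both, in a coding exon, centred 53010 bp into the gene in the WT list and 53143 bp in the Bmi1-/- list. It had 23 reads over 7.20 in the WT list and 31 over 10.0 in the Bmi1-/- list, with enrichments of 3.19 and 3.10 and a ratio of 0.970 (0.548 to 1.74). A second shared peak, 6356 bp upstream in the WT list, had 25 and 31 reads and a ratio of 0.977 (0.559 to 1.73).

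Prickle2 (ENSMUSG00000030020.13, chr6:92370908-92706155, minus strand), whose LIM-domain protein binds Vangl, was the longest region, at 345 kb, and the most sparsely covered, with 3.19 peaks per 100 kb in the WT list and 2.61 in the Bmi1-/- list. A site next to its start was shared. The WT peak, which ended short of the 5′ end, at chr6:92705531-92706088 had 18 reads over 6.54 at the 49.4 percentile. The Bmi1-/- peak at chr6:92705672-92706514 lay over the 5′ end and had 27 reads over 8.04, an enrichment of 3.36 (2.21 to 4.88), at the 93.4 percentile. The summits were 1 bp apart, and the ratio was 1.22 (0.647 to 2.35). The strongest WT promoter peak was a separate one, at chr6:92704073-92704635, with 23 reads over 6.60, an enrichment of 3.48 (2.21 to 5.23), at the 93.6 percentile. Of the 11 WT and 9 Bmi1-/- peaks only the pair next to the start overlapped. The strongest other peak, intronic in both, lay 27434 bp into the gene in the WT list with 22 reads and 316054 bp into it in the Bmi1-/- list with 24 reads. All 9 Bmi1-/- peaks lay on the commonest background of that list.

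Taken over the 10 genes, 7 had a higher percentile for the strongest promoter peak in the Bmi1-/- list, Dvl1 and Ptk7 included, against 68.6% of the 16298 genes that had a promoter peak at all. The shares were close. Among the 8 members called in both lists, 4 had an enrichment ratio above 1, against 51.7% of 11618 genes. The median ratio was 0.993 for the members, with single genes ranging from 0.836 to 1.11, and 1.01 for all genes. No member reached 1.5 or fell to its inverse, against 2.82% and 1.34% of all genes. The strongest promoter peaks overlapped between the lists for 3 of 8 members, Celsr3, Dvl2 and Dvl3, against 55.3% of all genes. The exact interval of that share was 8.52% to 75.5%.

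Across whole gene regions 7 members had more peaks in the Bmi1-/- list, against 44.3% of all genes, and Celsr2, Dvl2 and Prickle2 had fewer, against 21.8%. Apart from the peak at its start, the peaks counted for Dvl2 lay within 252 bp of a TSS of Phf23 or Gabarap. The members without a region peak in either list numbered 0, against 17% of all genes. The members held 7.20 peaks per 100 kb in the WT list and 8.07 in the Bmi1-/- list, and all protein-coding genes 4.57 and 5.74. Of the 58 WT peaks 30 passed a q-value of 0.05, and of the 65 Bmi1-/- peaks 49 did, where 53.5% and 64.6% of all region peaks passed. The promoter share was 29.3% in the WT list and 40% in the Bmi1-/- list, and that of all region peaks was 40.3% and 40.1%.

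Of the WT peaks 19 of 58 overlapped the Bmi1-/- list, 32.8% (21.0% to 46.3%), and of the Bmi1-/- peaks 19 of 65 overlapped the WT list, 29.2% (18.6% to 41.8%). The shares for all gene regions were 28.9% and 21.9%. In promoters the members overlapped in 41.2% and 30.8% of cases, against 48.8% and 36.6% for all genes. Outside promoters they overlapped in 29.3% (16.1% to 45.5%) and 28.2% (15% to 44.9%), against 15.4% and 12.1% for all genes. Both lower bounds lay above the share of all genes, but these peaks came from few loci: Celsr1 held 5 of the 12 in the WT list and 5 of the 11 in the Bmi1-/- list, and 3 and 2 were those next to Phf23. Peaks that overlapped had a higher G and C content around the summit, with a median of 61.7% in both lists, than those that did not, with 53.2% in the WT list and 55.0% in the Bmi1-/- list. The 9 Bmi1-/- peaks within 500 bp of a 5′ end had a median of 69.2% and the 2 such WT peaks 69.9%, against 52.7% for all peaks of either list.

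**Figure D4:**
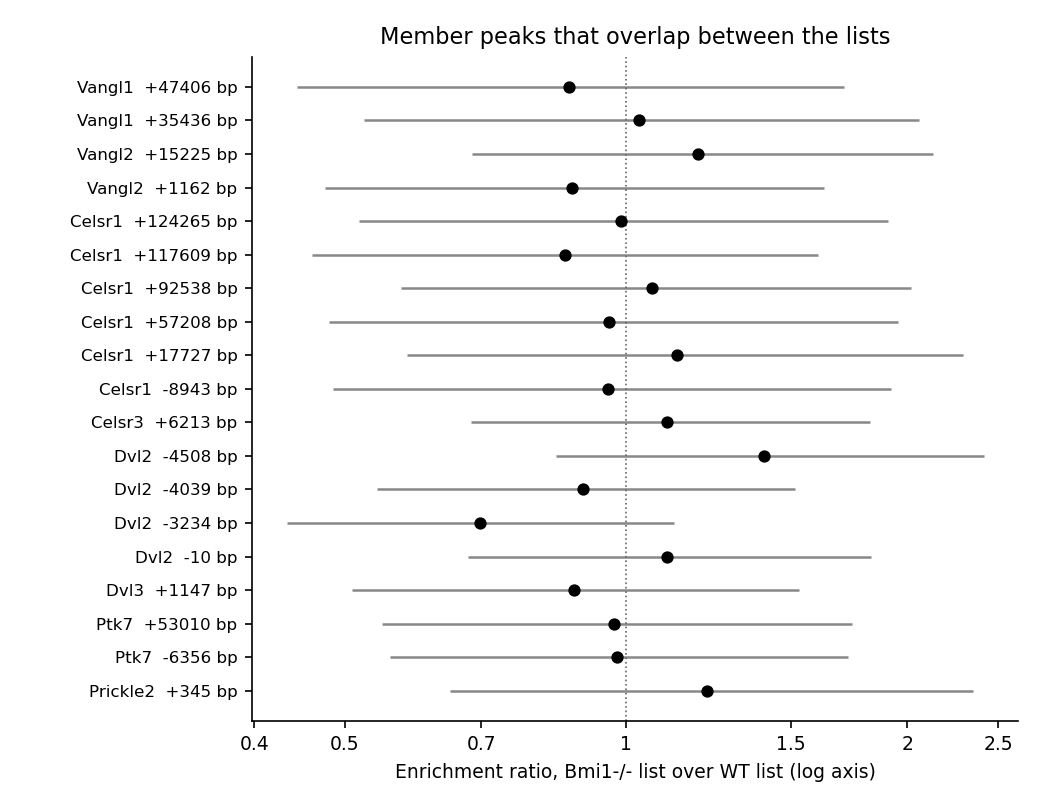
Ratio of the enrichment in the list labelled Bmi1-/- to that in the list labelled WT (log axis) for the 19 WT member peaks that overlap a Bmi1-/- peak, each named by its gene and the distance of the WT peak centre from the 5′ end in bp. Points are ratios and lines are 95% exact conditional intervals for counting error, all of which include 1. The points run from 0.697 to 1.41. A WT peak that overlaps more than 1 Bmi1-/- peak is set against the strongest of them.

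Each of the 19 shared WT peaks was set against the strongest Bmi1-/- peak that it overlapped, which gave 18 distinct Bmi1-/- peaks. Their median enrichment ratio was 0.977, and that of 14766 shared peaks of all gene regions was 0.986. In the members 8 of 19 ratios, 42.1%, were above 1, against 47.2% of all pairs, and 0 of the 19 intervals left out 1. The background was higher in the Bmi1-/- list at every pair. Its ratio had a median of 1.38, with single pairs ranging from 1.13 to 1.59, and the pileup ratio had a median of 1.35. For all gene regions the median background ratio was 1.28. The percentile was higher in the Bmi1-/- list for 14 of 19 pairs, 73.7%, against 63.0% of all pairs. At the same enrichment a larger background gives a smaller p, so percentile and enrichment are different readouts of the same site.

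**Figure D5:**
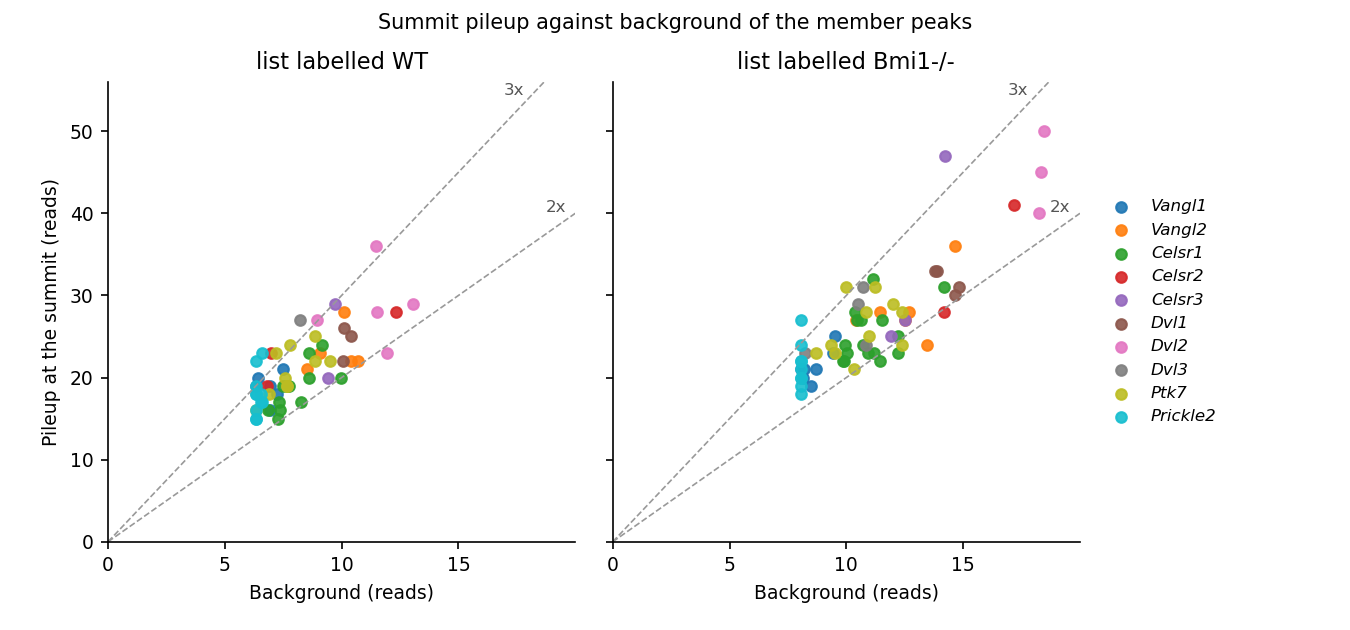
Reads piled up at the summit against the local background in reads for every member peak, 58 in the list labelled WT (left) and 65 in the list labelled Bmi1-/- (right), coloured by gene. Dashed lines mark enrichments of 2 and 3. The Bmi1-/- points lie farther to the right and higher, up to 50 reads over 18.4 at a peak upstream of Dvl2, 15 bp from a TSS of Phf23. Their median enrichment was lower than in the WT list for every gene but Dvl2.

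The level of the background differed between genes in the same order in both lists at the extremes. Its median over the peaks of Prickle2 was 6.32 reads in the WT list and 8.04 in the Bmi1-/- list. At Dvl2 it was 11.5 and 18.3 reads, over peaks that, but for the one at the start, lay next to Phf23 or Gabarap. The median enrichment of a gene's peaks stayed between 2.33 at Celsr1 and 3.29 at Dvl3 in the WT list, and between 2.16 at Celsr3 and 2.78 at Dvl3 in the Bmi1-/- list. It was lower in the Bmi1-/- list for every member but Dvl2, with 2.43 and 2.46. Over all peaks the median was 2.69 in the WT list and 2.49 in the Bmi1-/- list.

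Other genes of the pathway were counted from a list of 36. A promoter peak was present for 30 in the WT list and 35 in the Bmi1-/- list, against 59.1% and 68.2% of all genes, with 0 genes in the WT list only (6.1% of all genes). Called in the Bmi1-/- list only were 5 of 36 genes, 13.9%, close to the 15.2% of all genes: Wnt5a, a ligand, with 27 reads over 11.3, Fzd6, a Frizzled receptor, with 18 reads over 8.04, Prickle3 with 20 reads over 8.04, Dchs2, a Dachsous cadherin, with 26 reads over 9.50, and Bbs4, a ciliary protein, with 27 reads over 8.04. Wnt7a had none in either list. By group the counts in the WT and Bmi1-/- lists were 6 and 8 of 9 ligands and receptors, 6 and 7 of 7 core adaptors, 4 and 5 of 5 Fat and Dachsous genes, 9 and 9 of 9 effectors and 5 and 6 of 6 ciliary effectors. The median enrichment ratio of the 30 genes with both was 1.01. Each ratio sets the strongest promoter peak of one list against that of the other, which need not be the same site. No intervals were computed for these genes. The highest ratios were 1.44 at Rhoa, a small GTPase that acts on the cytoskeleton, with 33 reads over 9.34 in the WT list and 65 over 12.8 in the Bmi1-/- list, and 1.39 at Dact1, a partner of Dishevelled, with 20 over 6.38 and 39 over 8.98. The lowest were 0.629 at Ror2, a receptor for Wnt5a, with 21 over 6.84 and 16 over 8.28, and 0.726 at Scrib, a scaffold protein that binds Vangl, with 30 over 11.2 and 33 over 16.98. The percentile was higher in the Bmi1-/- list for 26 of 35 genes, against the 68.6% of all genes given above. A peak within 500 bp of the 5′ end was present for 19 of the 36 in the WT list and 26 in the Bmi1-/- list, against 34.7% and 46.5% of all genes. It was in the Bmi1-/- list only for 9 (17.2% of all genes) and in the WT list only for 2, Ror2 and Smurf1 (5.45% of all genes).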

How the data were processed

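ATAC-seq was done on the organ of Corti of P2 mice, with 1 library per genotype, grouped by the genotype in the GEO labels. Reads were trimmed by the authors, aligned with BWA-MEM, and peaks were called per library by MACS2. The labels give mm10, and the MACS2 version and options are not given in the sources used here. The deposited fold enrichment divides the summit's pileup by its local background (a ratio, with 1 added to both). The deposited −log10 p rests on a Poisson model, with a −log10 q for multiple testing inside each library. The deposited score repeats the −log10 p and was left out.

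The lists held 77826 (WT) and 100668 (Bmi1-/-) peaks, and 230 and 237 on unplaced sequences were left out. No read totals are in the lists, so the only measure of depth is the background. Pileup and background were solved from fold enrichment and −log10 p, with only whole pileups tried. For 100% of peaks in both lists the solution gave back the deposited −log10 p to within 0.001. The solver, the assignment and the overlap were tested on simulated data. No peak lay beyond a GRCm38 chromosome end. Genes were taken from GENCODE vM21 and promoter sequences from RefSeq (GRCm38.p6). Lists overlapped where peaks shared at least 1 bp. Intervals are 95%, exact binomial for shares, exact Poisson for enrichments and exact conditional for ratios, and no test was made. Python 3.11.15, numpy 2.4.6, pandas 2.3.3, scipy 1.17.1 and matplotlib 3.10.9 were used.

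The members, gene lists and alternatives were chosen with earlier results of these data known. All 10 members are named with their strongest promoter peak and the strongest other peak in each list. Other pathway genes are counted, with values for those with a promoter peak in 1 list and the 2 highest and 2 lowest ratios. A neighbouring gene is named where its TSS lies within 3 kb of a described peak. The 8 markers of each cell type were counted by promoter peaks. Alternatives were stricter q-values, equal numbers of peaks, other promoter and region windows, removal of peaks near other genes, a stricter overlap and fold enrichment as strength.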

Additional observations from a re-analysis of the deposited data

How the results depend on the processing

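Of 80 values recomputed under alternatives for 10 results, 61 stayed within 1.5 times the count or within an interval, and 19 moved. That interval was the exact binomial one for overlap shares. For the median enrichment ratio 0.823 to 1.195 was used, the exact conditional interval of a ratio of summed pileups, scaled by summed backgrounds. It is not an interval of the median itself. A change of direction was not scored. No paired analysis was possible because each genotype had 1 library and no test was made. With peaks of −log10 q 2 or more, the WT list had 3 members with a promoter peak, 12 member peaks and 0 members with a peak within 500 bp of the 5′ end, and the Bmi1-/- list had 24 member peaks and 4 members with such a peak. With −log10 q 5 or more, the WT list held 0 promoter genes and 0 peaks, and the Bmi1-/- list 1 gene (the 1 gene that ranked higher) and 2 peaks, of which 0% overlapped the other list. With a q-value of at most 0.05 the WT list had 30 member peaks, and the overlap of the Bmi1-/- peaks was 18.4%. Fewer peaks remain at stricter thresholds by construction. With a promoter from 1 kb upstream to 100 bp downstream 4 members had a WT promoter peak, and with the gene's 5′ end as the only TSS 5 did. A reciprocal overlap of 50% gave 18.97% and 16.9% for the WT and Bmi1-/- lists. For the 5′ end, the WT count was 1 within 250 bp and 4 within 500 bp of any TSS. The alternatives for the 5′ end and a fold enrichment of at least 2 were chosen after seeing the data, and the latter moved none of the 10 results. The median enrichment ratio ran from 0.944 to 1.05, on both sides of 1. The number of members ranking higher in the Bmi1-/- list was 6 to 9 except at the strictest −log10 q. There, neither an overlap of the WT list nor a median ratio could be computed.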
